A study of Mus musculus with 3 samples.

Results

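Levels of 58 cell-cycle and DNA replication genes were compared in 3 RNA-seq libraries of mouse cells. The genes were a fixed list of cyclins, cyclin-dependent kinases, E2F factors, replication proteins and mitosis proteins, matched from Ensembl gene identifiers to mouse symbols. They are 58 of the 29267 genes in each table, with 18 assigned to G1, 19 to S phase and 21 to G2/M. The first library came from MEFs of the OG2 strain, whose cells carry an Oct4-GFP transgene, and the second from MEFs of the ICR strain. Both MEF cultures were at passages 3 to 5, and the study describes isolation of its transgenic MEFs from mid-gestation embryos. The third library came from the R1 embryonic stem cell (ESC) line at passage 30, labelled naive. No treatment is given for any of them. The study used such cells as the start and the end point of reprogramming. With 1 library for each strain or line, the strain, the culture and the library cannot be told apart.

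A cell enters the cycle when D-type cyclins with Cdk4 or Cdk6, and then cyclin E with Cdk2, phosphorylate the retinoblastoma family and release E2F factors. E2F targets include the proteins that load the MCM2-7 helicase at origins and copy the DNA. Cyclin B with Cdk1 then drives mitosis, many of whose genes are switched on late in the cycle through promoter elements bound by the DREAM and MuvB complexes. Fibroblasts in early passage proliferate after a G1 phase that depends on growth factors, while ESCs are known for a short G1.

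Depth was greatest for OG2 MEFs, with 5149312 expected counts in all, followed by ICR MEFs with 4590619 and R1 with 1717838, so a member had the fewest reads behind it in the last. All 58 members had at least 1 count in every library and passed edgeR's filter on low counts, and 6 of them (Rbl1, Rbl2, E2f8, Gins1, Bub1 and Wee1) had under 10 counts in the R1 library. The lowest count of any member in a MEF library was 11. The 10 fibroblast markers examined were present in all libraries, with a summed level of 18894 TPM (transcripts per 1000000, a level per transcript length) in OG2, 20646 TPM in ICR and 3529 TPM in the R1 library. Each of the 10 was lower in the R1 library than in either MEF library. S100a4 (2372 TPM) and Vim (945 TPM) made up most of the R1 sum. Col1a1 stood there at 101 TPM, against 3301 and 3526 TPM in OG2 and ICR, and Pdgfra at 0.4 TPM, against 59.4 and 46.6 TPM. The 10 pluripotency markers summed to 53.7 TPM in the R1 library and to under 1 TPM in either MEF library. Pou5f1 had 71 counts in the R1 library, Nanog 51, Sox2 32, Fgf4 14 and Tdgf1 2, each with at most 4 counts in a MEF library. The other 5 (Zfp42, Esrrb, Dppa4, Dppa5a and Utf1) were at 0 in the R1 library. The R1 library is therefore called the ESC-labelled library. Its 7 epithelial markers summed to 271 TPM, against 12.3 and 22.1 TPM in OG2 and ICR MEFs, and its 4 endothelial markers to 25.4 TPM, against 4.10 and 4.29 TPM. Krt14 (205 TPM) and Krt8 (54.1 TPM) made up most of the first sum while Krt5 and Cldn6 were at 0, and Pecam1 (22.8 TPM) most of the second while Kdr and Cdh5 were at 0. In these bulk samples, fewer cycling cells and less RNA of a gene per cell cannot be told apart.

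Motifs for E2F factors or for the late cell-cycle elements lay around the start sites of some members. RefSeq promoter windows on GRCm38.p6, from 250 bases before to 50 bases after the start site, were at hand for 44 of the 58 members. An exact E2F motif (TTTGGCGC, TTTCCCGC, TTTGCCGC or TTTCGCGC, on either strand) lay in the windows of 15 of these 44 (34.1%), against 2.61% of all 27025 genes in the promoter table. It lay in 6 of 13 G1 members, 8 of 15 S members (53.3%) and 1 of 16 G2/M members, which was Cdk1. TTTGAA, the core of the cell cycle homology region, together with CCAAT lay in 10 of 16 G2/M members (62.5%), 3 of 13 G1 members and 1 of 15 S members, against 7.97% of all genes. A gene with several start sites has several windows and counts once, and the motifs searched overlap in places.

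The windows of Mcm6 and Mcm7, the S members of highest MEF level with an E2F motif, are shown with that of Cdk1, the G2/M member of highest MEF level with both TTTGAA and CCAAT. Mcm6 and Mcm7 encode subunits of the replicative helicase, and Cdk1 is the kinase that starts mitosis. Capitals mark the E2F motifs, TTTGAA and CCAAT on either strand, so that GCGGGAAA is the reverse complement of an E2F motif and ATTGG that of CCAAT. The regions, all on the minus strand of GRCm38.p6, are chr1:128359656-128359955 for Mcm6, chr5:138171834-138172133 for Mcm7 and chr10:69352863-69353162 for Cdk1.
Mcm6: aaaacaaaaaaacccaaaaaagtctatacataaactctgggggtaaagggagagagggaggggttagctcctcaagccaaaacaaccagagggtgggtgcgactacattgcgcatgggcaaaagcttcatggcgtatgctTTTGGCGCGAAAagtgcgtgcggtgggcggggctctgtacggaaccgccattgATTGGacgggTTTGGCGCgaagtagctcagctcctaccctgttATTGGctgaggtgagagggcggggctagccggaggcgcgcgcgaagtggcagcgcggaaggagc
Mcm7: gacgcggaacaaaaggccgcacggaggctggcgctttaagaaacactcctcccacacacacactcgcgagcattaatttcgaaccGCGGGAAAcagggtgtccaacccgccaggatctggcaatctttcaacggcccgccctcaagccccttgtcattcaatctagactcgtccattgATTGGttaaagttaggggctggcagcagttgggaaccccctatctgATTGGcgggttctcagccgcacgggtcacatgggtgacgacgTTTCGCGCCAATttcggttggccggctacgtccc
Cdk1: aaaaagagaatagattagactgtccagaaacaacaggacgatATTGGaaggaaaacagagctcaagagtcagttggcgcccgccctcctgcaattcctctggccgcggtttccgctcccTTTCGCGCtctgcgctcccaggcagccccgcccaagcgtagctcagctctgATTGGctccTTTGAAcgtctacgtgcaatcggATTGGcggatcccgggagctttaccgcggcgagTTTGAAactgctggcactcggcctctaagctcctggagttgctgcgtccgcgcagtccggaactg
In Mcm6, an E2F motif on the forward strand begins at base 141 of the window and a reverse one overlaps it from base 145, with another forward motif at base 204. The Cdk1 window holds TTTGAA at bases 180 and 236 and CCAAT 3 times in reverse. A match describes the letters of the window, and binding was not measured here.

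Across the 58 members, the level in MEFs ranged from 3.25 TPM (E2f2) to 685 TPM (Cdk4) in OG2 and from 1 TPM to 733 TPM, for the same genes, in ICR. The median member had 40.4 TPM in OG2, 43.0 TPM in ICR and 12.2 TPM in the ESC-labelled library. The levels of the members on the log2(TPM + 1) scale followed each other closely in the MEF libraries, with Pearson's r of 0.980 over the 58 genes, and less closely between either MEF library and the ESC-labelled library, with r of 0.663 and 0.668. These correlations run over genes, which are not replicates, and over the genes that passed edgeR's filter the values were 0.974, 0.628 and 0.621.

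**Figure D1:**
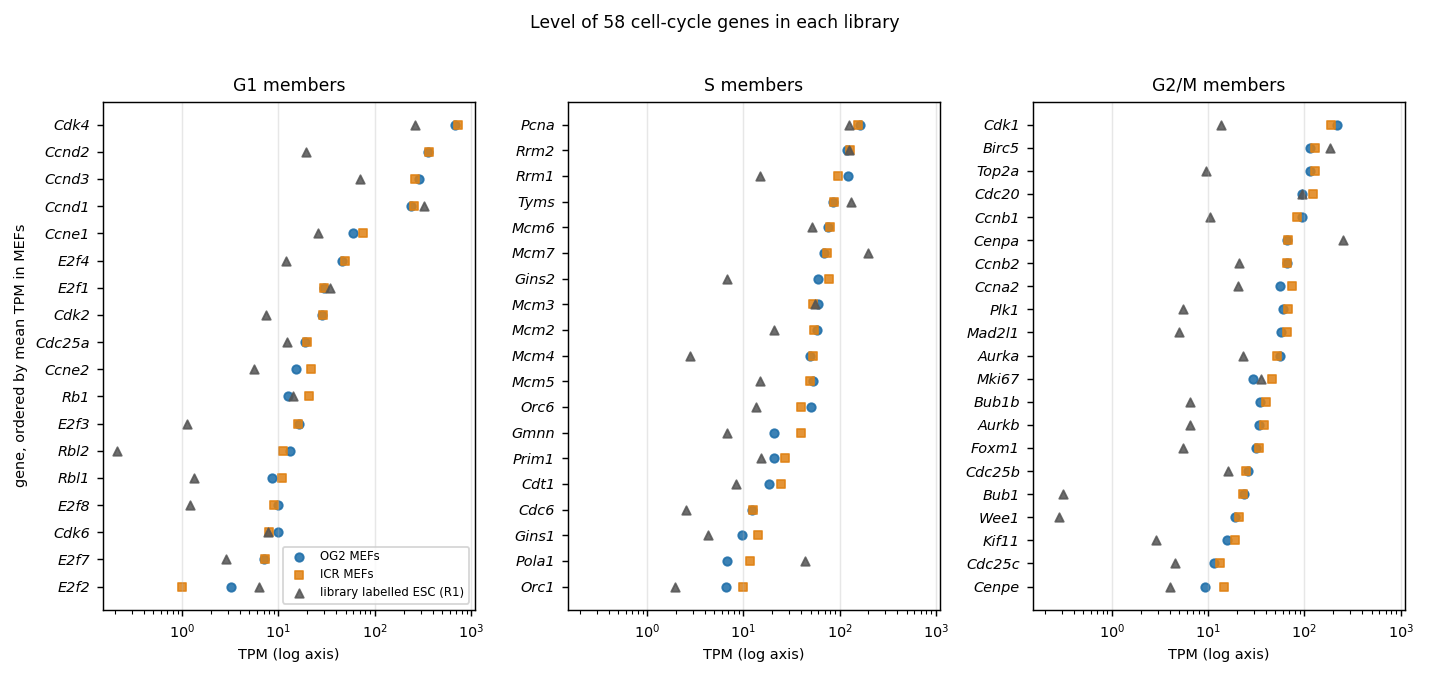
Levels of the 58 members in TPM, on a log axis, by phase group. Each row is a gene, circles are OG2 MEFs, squares are ICR MEFs and triangles are the ESC-labelled library. The MEF symbols lie close together for most genes, while the triangles range from 0.21 TPM for Rbl2 to 325 TPM for Ccnd1.

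The comparison of the MEF strains asks whether the OG2 and ICR cultures expressed the proliferation genes alike. No member differed by 1 log2 unit or more. Differences are of log2(CPM + 1), where CPM is counts per 1000000 after TMM scaling, and the intervals given are exact 95% intervals of the ratio of counts. They cover counting error only, since PCR reads are not independent molecules, and there is no replicate of a strain to give a test. Over all 16948 genes with a count in a MEF library, 1% were at least 1 log2 unit higher in OG2 and 1.9% in ICR, so that 0 of 58 is near the background. At 0.5 log2 unit, 0 members were higher in OG2 MEFs, where 5.72% of all genes were, and 4 members were higher in ICR MEFs (Gmnn, Cenpe, Mki67 and Pola1), or 6.90% of the members beside 8.98% of all genes. All genes together were shallower, with a median of 70 counts in OG2 against 215 for the members, so these shares are not of like depth. The SD of the difference over the members was 0.240, against 0.337 over the 11399 genes with no fewer counts in either MEF library than the lowest member (11).

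The G1 members took the largest share of the counts, 0.268% in OG2 (Wilson interval 0.264% to 0.273%) and 0.264% in ICR (0.259% to 0.268%), against 0.133% and 0.125% for the S members and 0.137% and 0.155% for the G2/M members. Most of the G1 share lay in the D-type cyclins and Cdk4. Cdk4, a catalytic partner of the D-type cyclins, had 2395 counts and 685 TPM in OG2 MEFs and 2038 counts and 733 TPM in ICR MEFs, a ratio of scaled counts of 1.08 with an interval from 1.02 to 1.14. Ccnd2 (cyclin D2) had 5598 counts in OG2 and 4872 in ICR, with a ratio of 1.05 (1.01 to 1.10). Ccnd1 (cyclin D1) had 2392 and 2217 counts, with a ratio of 0.990 (0.934 to 1.05). The D-type cyclins thus lay close to equality in the MEF strains, although the depth of these genes let intervals of a few percent stand clear of 1. Ccnd3 (cyclin D3) stood somewhat farther, with 1370 counts in OG2 and 1093 in ICR and a ratio of 1.15 (1.06 to 1.25). By level per length, Ccnd2 made up 40.6% of the D-type cyclin TPM in OG2 and 41.2% in ICR, Ccnd1 26.9% and 29.0%, and Ccnd3 32.6% and 29.7%. Cdk4 made up 94.7% and 95.2% of the summed TPM of Cdk2, Cdk4 and Cdk6.

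Downstream of the D-type cyclins, the E cyclins, pocket proteins and E2F factors had lower counts and wider intervals. Rb1, the retinoblastoma protein that holds back E2F, had 106 counts in OG2 and 127 in ICR, and its difference of -0.37 was the lowest of the G1 members, with a ratio of 0.766 (0.586 to 0.999). Its relative Rbl1 (p107) had 101 and 105 counts, with a difference of -0.17, and the interval of the ratio held 1. The third pocket protein gene, Rbl2 (p130), lay on the other side, with 176 counts in OG2 and 128 in ICR and a difference of 0.32 whose interval reached just under a ratio of 1 (0.999 to 1.60). Of this family, the interval of Rb1 alone lay clear of 1. Cdk6, a second partner of the D-type cyclins, had 99 and 66 counts and the highest difference of the G1 members, 0.43, with an interval that held 1 (0.998 to 1.91). Ccne1 (cyclin E1), the activator of Cdk2, had 303 counts in OG2 and 309 in ICR, a difference of -0.15. Cdk2 itself differed by 0.07, Ccne2 by -0.13 and Cdc25a, a phosphatase that activates Cdk2, by 0.02, all with intervals that held 1.

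The E2F genes differed little in counts between the strains. E2f1 had 215 and 185 counts, E2f3 207 and 175, and E2f4 236 and 215, with differences from 0.01 to 0.11. E2f7 and E2f8, the repressors of the family, differed by 0.01 each. Of the TPM of the 6 E2F genes among the members, E2f4, which works mainly in repression, held 41.1% in OG2 and 43.7% in ICR. E2f1, an activator, held 26.5% and 26.6%. That sum leaves out E2f5 and E2f6, which belong to the wider list described below. E2f6 stood at 52.8 TPM in OG2 and 50.8 TPM in ICR, against 46.2 and 49.1 TPM for E2f4. E2f2 had 11 counts in both MEF libraries, but RSEM gave it an effective length of 1204 bases in OG2 and 4575 in ICR, so its TPM read 3.25 and 1.

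Among the S members, the subunits of ribonucleotide reductase, which makes deoxynucleotides, were among the most abundant together with Pcna, the sliding clamp of the DNA polymerases. Pcna had 607 counts and 162 TPM in OG2 MEFs and 504 counts and 156 TPM in ICR MEFs. Rrm1, the large subunit of the reductase, had 1327 counts in OG2 and 892 in ICR, a difference of 0.45 and a ratio of 1.36 (1.25 to 1.49). Its partner Rrm2, the small and cell-cycle regulated subunit, had 679 and 625 counts and a difference of -0.00, with an interval from 0.893 to 1.11. The subunits of 1 enzyme thus stood apart by more than their counting error. Tyms, the thymidylate synthase, had 267 and 213 counts and an interval that held 1.

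Of the origin-licensing genes, Orc6, a subunit of the origin recognition complex, had 208 counts in OG2 and 142 in ICR, with a difference of 0.41 and a ratio of 1.34 (1.08 to 1.68). Gmnn (geminin), which blocks relicensing by binding Cdt1, had 46 counts in OG2 and 77 in ICR, the lowest difference of any member at -0.79, with a ratio of 0.548 (0.372 to 0.800). Its target Cdt1 had 106 and 120 counts, a difference of -0.29, and Cdc6, the other loader of the helicase, 102 and 88 counts, a difference of 0.08, both with intervals that held 1. Orc1 differed by -0.19 with an interval that held 1 as well. Licensing genes were therefore found on either side of equality.

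At the replication fork, Pola1, the catalytic subunit of polymerase alpha, had 98 counts in OG2 and 131 in ICR, with a difference of -0.52 and a ratio of 0.686 (0.523 to 0.899). Prim1, the primase subunit of the same complex, had 83 and 92 counts and a difference of -0.26, and Gins1, a part of the helicase cofactor GINS, had 25 and 30 counts and a difference of -0.32. The intervals of both held 1, as did that of Gins2, at -0.11.

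The G2/M members leaned towards ICR MEFs in their summed counts. Mki67, the marker of cycling cells Ki-67, had 824 counts and 29.6 TPM in OG2 and 1090 counts and 45.9 TPM in ICR, a difference of -0.52 with a ratio of 0.694 (0.633 to 0.760). Cenpe, a kinetochore motor, had 199 and 267 counts and the lowest difference of the group, -0.54, with a ratio of 0.684 (0.566 to 0.825). Ccna2 (cyclin A2) had 437 counts in OG2 and 495 in ICR, with a difference of -0.30 and a ratio of 0.810 (0.711 to 0.923). These were joined by Cdc20, the activator of the anaphase-promoting complex, with 432 and 479 counts and a ratio of 0.827 (0.725 to 0.944). Top2a, which untangles DNA for chromosome separation, had 1092 and 1094 counts and a ratio of 0.916 (0.841 to 0.997).

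On the other side, Cenpa, the centromeric histone, had 206 counts in OG2 and 155 in ICR and the highest difference of the group, 0.28. The kinase Aurka, with 262 and 213 counts, differed by 0.17, and the mitotic cyclin Ccnb1, with 501 and 429 counts, by 0.10. The intervals of all 3 ratios held 1. Cdk1, the kinase that cyclin B activates, had the highest G2/M level, with 478 counts and 217 TPM in OG2 and 412 counts and 191 TPM in ICR, and Birc5 (survivin), with 258 and 249 counts, stood at 115 and 129 TPM. The remaining members of the group (Ccnb2, Cdc25b, Cdc25c, Plk1, Aurkb, Bub1, Bub1b, Mad2l1, Kif11, Foxm1 and Wee1) had intervals that held 1.

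The counting interval lay above 1 for 7 of the 58 members (12.1%, beside 12.8% of the 12185 genes that reached 10 counts in a MEF library) and below 1 for 8 of them (13.8%, beside 13.1%). By phase, 3 of 18 G1, 4 of 19 S and 0 of 21 G2/M members had an interval above 1, and 1 of 18, 2 of 19 and 5 of 21 (23.8%) an interval below 1. The median difference was 0.01 over the G1, 0.02 over the S and -0.07 over the G2/M members, against -0.02 over all genes. Summed over all genes with a count in a MEF library, the ratio of scaled counts was 1.029 (1.028 to 1.030). Summed over the members of each group, it was 1.05 for G1 (1.02 to 1.07), 1.10 for S (1.06 to 1.13) and 0.911 for G2/M (0.881 to 0.941).

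Single genes with high counts carried part of these sums. Without Ccnd2 the G1 ratio was 1.04 (1.01 to 1.08). Without Rrm1 the S ratio was 1.05 (1.01 to 1.09), and without Mki67 the G2/M ratio was 0.950 (0.917 to 0.984). The order of the groups, with G2/M under the all-gene ratio of 1.029 and S and G1 over it, was also seen without them. The intervals of G1 and S overlapped with and without them. The G1 interval held the all-gene ratio with and without Ccnd2, and the S interval held it once Rrm1 was left out. Macrophage markers also differed between the MEF libraries, with 34 counts of Adgre1 in OG2 and 5 in ICR, 11 and 0 of Ptprc, 237 and 132 of Lyz2, and summed levels over the 5 markers of 98.4 and 63.1 TPM. Their part in the differences of the members was not tested.

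**Figure D2:**
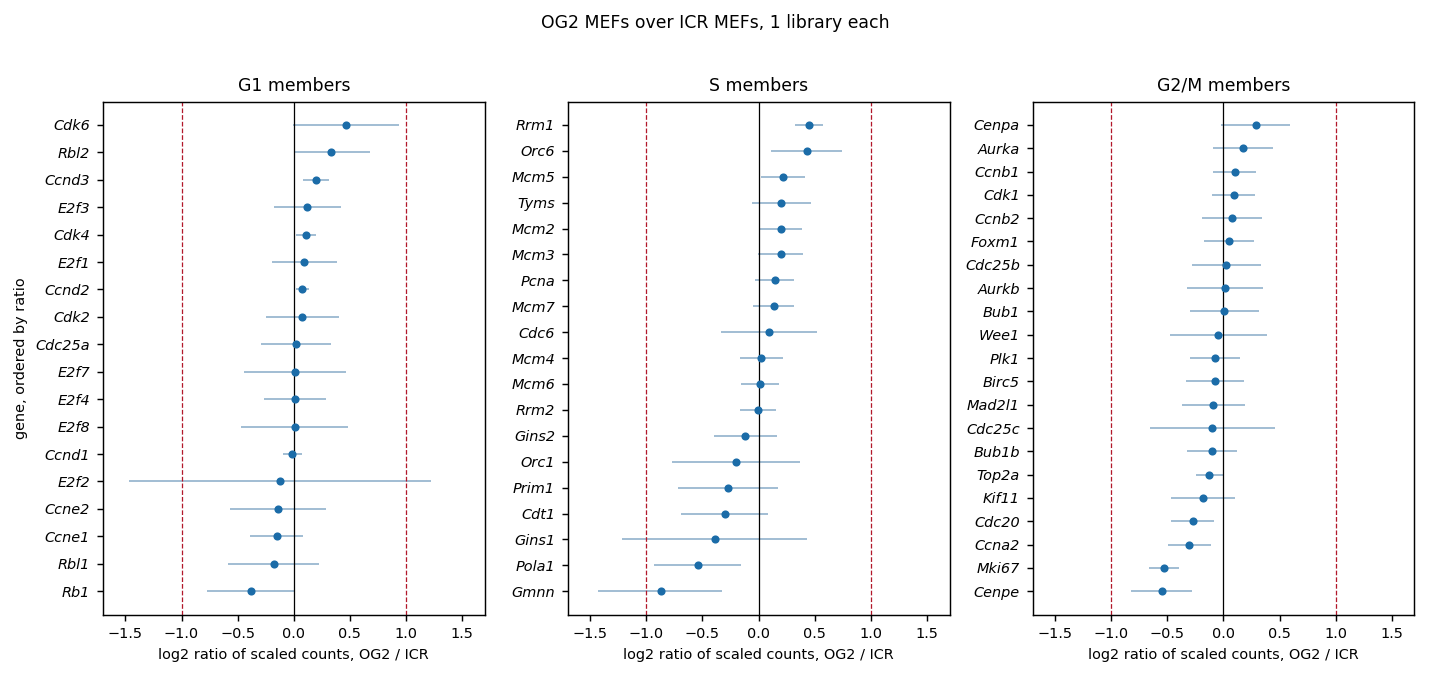
Ratio of scaled counts in OG2 MEFs to those in ICR MEFs for each member, on a log2 axis, by phase group. Points are ratios, bars are exact 95% counting intervals and dashed lines mark 1 log2 unit. The ratios run from 0.548 for Gmnn to 1.38 for Cdk6, with all points inside the dashed lines, and in G2/M 5 of the 21 bars lie wholly below 0.

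A wider list of 115 further cell-cycle genes was described in the same way, and 0 of them were at least 1 log2 unit higher in OG2. Kif18a, a kinesin of chromosome alignment, had 26 counts in OG2 and 46 in ICR and a difference of -0.82. In the other direction stood Ncapd2, a condensin subunit, with 696 counts in OG2 and 363 in ICR and a difference of 0.81, and Pold3, an accessory subunit of polymerase delta, with 131 and 74 counts and a difference of 0.66. At 0.5 log2 unit, 4 of the 115 were higher in OG2 (3.48%, beside 5.72% of all genes) and 7 in ICR (6.09%, beside 8.98%). Here too all genes were shallower, with a median of 70 counts in OG2 against 160 for the wider list. Of the 57 wider G2/M genes, 13 (22.8%, beside 13.1% of all genes) had a counting interval below 1 and 2 (3.51%, beside 12.8%) an interval above it, and their median was -0.07.

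Subunits of a complex are often made in related amounts, so the spread of the difference among them describes how coherently a complex moved. The MCM2-7 helicase, which has 6 subunits in equal number, was coherent in the MEF libraries. Mcm2 had 518 counts in OG2, 414 in ICR and 134 in the ESC-labelled library. Mcm3 had 457, 366 and 67 counts, and Mcm4 had 477, 431 and 19, in the same order. Thus Mcm4 was at the level of its partners in MEFs and had the fewest counts of the 6 in the ESC-labelled library. Mcm5 had 482, 381 and 97 counts. Mcm6 had 588, 535 and 284 counts. Mcm7, with 527, 441 and 412 counts, was the highest of the 6 in the ESC-labelled library.

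Per length, the MCM2-7 levels ran from 49.7 TPM (Mcm4) to 76.4 TPM (Mcm6) in OG2 and from 48.8 TPM (Mcm5) to 80.3 TPM (Mcm6) in ICR, a range of 1.54-fold and 1.65-fold. In the ESC-labelled library they ran from 2.80 TPM (Mcm4) to 196 TPM (Mcm7), a range of 70.1-fold. The difference between OG2 and ICR lay between 0.01 (Mcm6) and 0.21 (Mcm5) for the 6 subunits, and its SD of 0.090 was as small as the 0.095 that counting error alone would give. The SD over the 2669 genes that reached the same count was 0.216. Between the ESC-labelled library and the MEF mean, the SD was 1.47, against 0.184 from counting error and 1.94 over those genes. Part of the TPM range came from the lengths used. Mcm3 had an effective length of 617 bases in the ESC-labelled library and 2725 in OG2 MEFs, and Mcm7 1066 and 2714 bases, so that the 67 counts of Mcm3 gave 55.1 TPM while the 97 counts of Mcm5 gave 15.1 TPM.

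Over 11 complexes, the SD of the difference between OG2 and ICR was between 0.086 (chromosomal passenger complex) and 0.541 (condensin I). Over all genes of no fewer counts it was 0.209 to 0.304, and 8 complexes lay under that value for their counts. DNA polymerase alpha-primase (0.306 beside 0.255), ribonucleotide reductase (0.319 beside 0.209) and condensin I (0.541 beside 0.236) lay over it. The SD of the difference between the ESC-labelled library and MEFs was between 0.536 (origin recognition complex) and 3.59 (Ndc80 complex), beside 1.91 to 2.01 over all genes of no fewer counts, with 8 complexes under that value and 3 over it. The wider spread in this comparison was thus shared by genes at large. In condensin I, which compacts mitotic chromosomes, Ncapd2 at 0.81 and Smc2 at -0.57 set the spread between the strains, against 0.126 from counting error. In the ESC-labelled library, some subunits were called higher and others lower in 7 of the 11 complexes by edgeR and in 3 by DESeq2, where 31.4% and 36% of all genes were called higher and lower by edgeR and 22.5% and 21.7% by DESeq2. In the Ndc80 complex, which ties kinetochores to microtubules, Spc24 had 80, 75 and 556 counts while its partner Ndc80 had 103, 114 and 1. In replication protein A, which coats single-stranded DNA, Rpa2 had 132, 112 and 292 counts and Rpa3 had 61, 48 and 1.

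**Figure D3:**
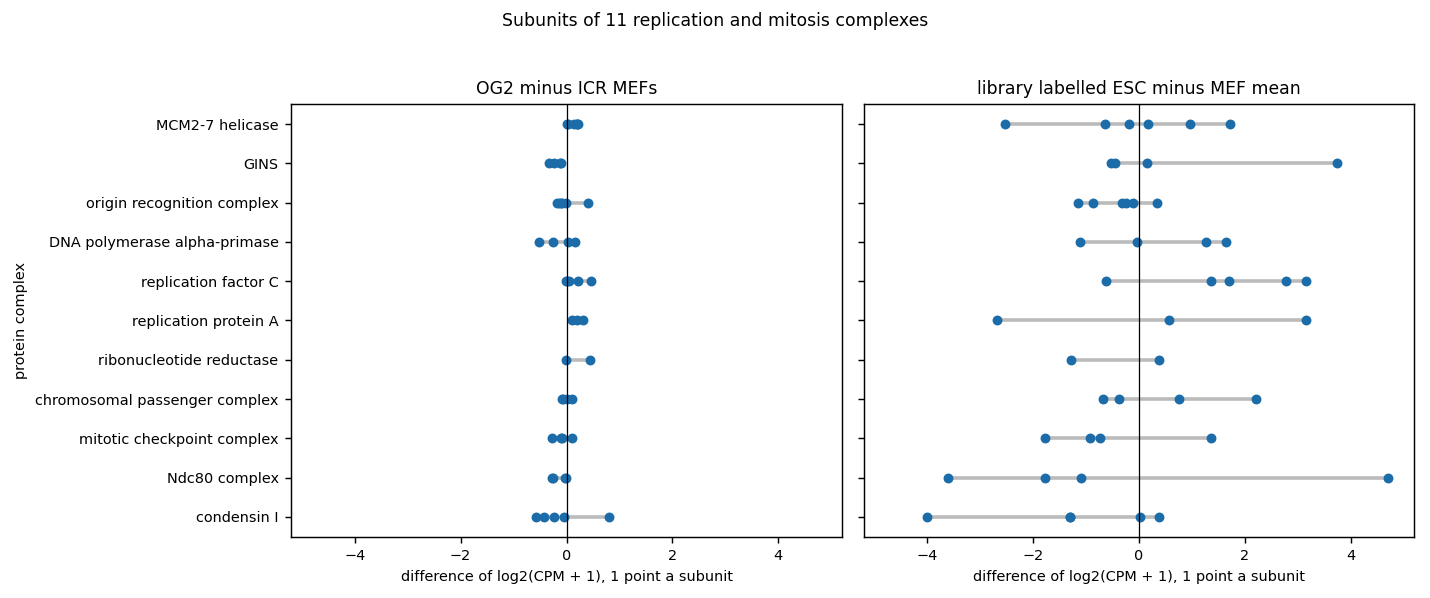
Differences of log2(CPM + 1) for the subunits of 11 complexes, with 1 point for each subunit and a grey line over their range. The left panel shows OG2 minus ICR MEFs and the right panel the ESC-labelled library minus the mean of the MEF libraries. The points lie close together on the left, where the SD within a complex reached 0.541, and far apart on the right, where it reached 3.59.

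The comparison of the ESC-labelled library with both MEF libraries asks how the start and end point of reprogramming differ in these genes. Of the 58 members, 19 were higher in the ESC-labelled library and 17 lower, and 22 passed in neither direction, by the quasi-likelihood test of edgeR, with p-values adjusted over 12663 genes after Benjamini and Hochberg. The members were called higher at 32.8% and lower at 29.3%, beside 31.4% and 36% of all genes tested, so that the share higher was near the background. Only 1 residual degree of freedom was left, so the p-values measure the spread of the MEF pair alone, and these samples are of unlike strains. DESeq2 called 13 members higher, beside 22.5% of its genes, and 12 lower, beside 21.7%. The 11 calls it did not make were Cdk6, Cdc25a, Pcna, Rrm2, Cdc25b and Aurka among the higher, with adjusted p from 0.0561 to 0.366, and Rbl1, E2f8, Bub1b, Kif11 and Foxm1 among the lower. The median difference was 0.09 over the G1, -0.04 over the S and -0.68 over the G2/M members, against -0.41 over all genes tested. The G1 median was -0.10 after GC correction and -1.48 on TPM, and the S median was 0.15 with median-of-ratios factors and 0.063 against OG2 MEFs alone, so neither held its direction. edgeR scaled over the tested genes only, and its log2 fold changes ran a median of 0.17 above the log2 ratios of scaled counts. The SE given with a fold change was worked out from the F statistic of the same test. It is therefore no separate measure of spread.

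The direction of many calls differed between counts and TPM, scales that differ in library scaling as well as in gene length. Counts in the ESC-labelled library carried shorter effective lengths, with a count-weighted mean of 2043 bases against 3137 and 3251 in OG2 and ICR MEFs. Each library has its own effective length for a gene, so this mean mixes shorter genes with shorter lengths of the same gene. On the deposited TPM scale, the median over all genes tested was -1.55, and 11 of the 19 members called higher (Cdk4, Cdk6, Rb1, Cdc25a, Mcm6, Pcna, Rrm2, Cdc20, Cdc25b, Aurka and Mki67) lay below 0 but above that median. The other 8 (Ccnd1, E2f1, E2f2, Mcm7, Tyms, Pola1, Cenpa and Birc5) were above 0 on either scale. For some of them the TPM also reflects a changed effective length. Pola1 had 1092 bases in the ESC-labelled library against 5168 in OG2 and 4606 in ICR, and Mcm7 1066 against 2714 and 2491, which raises their TPM there. Tyms went the other way, with 2312 bases against 1098 and 1020. All 17 members called lower were also lower on the TPM scale.

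In G1, 7 members were called higher (38.9%, beside 31.4% of all genes) and 5 lower (27.8%, beside 36%), and DESeq2 called 5 and 3. The D-type cyclins parted. Ccnd1 had 2301 counts in the ESC-labelled library, about as many as in the deeper MEF libraries, and rose by a log2 fold of 2.12 (SE 0.17, edgeR's adjusted p = 7.25e-06). Ccnd2 had 211 counts against 5598 and 4872 and fell by 2.51 (SE 0.21, edgeR's adjusted p = 8.87e-06). Ccnd3, with 314 counts, did not pass (0.16, SE 0.18, edgeR's adjusted p = 0.457). Ccnd1 thus made up 78.5% of the D-type cyclin TPM in the ESC-labelled library, and Ccnd2 4.66%.

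Within the E2F family, E2f1 had 177 counts in the ESC-labelled library against 215 and 185, and rose by 1.95 (SE 0.17, edgeR's adjusted p = 9.54e-06). E2f2, another activator, had 57 counts against 11 and 11, and rose by 4.48 (SE 0.39, edgeR's adjusted p = 1.08e-05). The third activator, E2f3, had 10 counts against 207 and 175, and fell by 2.12 (SE 0.34, edgeR's adjusted p = 4.25e-04). The activators of the family therefore did not share a direction, and E2f1 held 59.5% of the TPM of the E2F members in this library. E2f8 also passed as lower, from 8 counts, but not by DESeq2 (its adjusted p = 0.378), while E2f4, E2f7, Ccne1, Ccne2 and Cdk2 did not pass. Of the pocket proteins, Rbl2 had 2 counts against 176 and 128, and fell by 4.09 (SE 0.56, edgeR's adjusted p = 1.85e-04). Its ratio of scaled counts was 0.0510, with a counting interval from 0.00614 to 0.186. Rbl1 passed as lower too, from 7 counts, but not by DESeq2 (its adjusted p = 0.123), while Rb1, with 69 counts, passed as higher on counts and lay below 0 on TPM.

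In S phase, 6 members were called higher, 31.6% beside 31.4% of all genes, and 2 lower, 10.5% beside 36%. DESeq2 called 4 higher (21.1%, beside 22.5%) and 2 lower (10.5%, beside 21.7%). Pcna and Rrm2 were called higher by edgeR only, and both lay below 0 on TPM. Tyms had 596 counts in the ESC-labelled library against 267 and 213, and rose by 3.44 (SE 0.17, edgeR's adjusted p = 4.43e-07). Pola1 had 95 counts against 98 and 131, and rose by 1.85 (SE 0.26, edgeR's adjusted p = 2.00e-04). Mcm7 rose by 1.89 (SE 0.16, edgeR's adjusted p = 9.57e-06) and Mcm4 fell by 2.45 (SE 0.25, edgeR's adjusted p = 2.59e-05), so subunits of 1 helicase were called in both directions. Mcm6 passed as higher, at 1.14, though it lay below 0 on TPM, and Mcm2, Mcm3 and Mcm5 did not pass. Rrm1 had 114 counts against 1327 and 892, and fell by 1.15 (SE 0.24, edgeR's adjusted p = 0.00231). Cdc6, with 12 counts, had the next lowest difference and did not pass (-0.86, SE 0.39, edgeR's adjusted p = 0.0754). Cdt1, Gmnn, Orc1, Orc6, Prim1, Gins1 and Gins2 did not pass either, with 8 to 37 counts each.

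In G2/M, 6 members were called higher (28.6%, beside 31.4% of all genes) and 10 lower (47.6%, beside 36%), and DESeq2 called 4 and 7, the latter 33.3% beside 21.7%. Bub1, a kinase of the spindle checkpoint, had 2 counts against 186 and 170, and fell by 4.33 (SE 0.49, edgeR's adjusted p = 5.57e-05). Wee1, which holds Cdk1 inactive, had 1 count against 94 and 89, and fell by 4.34 (SE 0.70, edgeR's adjusted p = 4.73e-04). Both rest on a count so low that the counting interval of the ratio was wide, from 0.00525 to 0.158 for Bub1 and from 0.00107 to 0.239 for Wee1. Top2a had 70 counts against 1092 and 1094, and fell by 1.84 (SE 0.20, edgeR's adjusted p = 4.62e-05). Cdk1, with 31 counts against 478 and 412, fell by 1.72 (SE 0.22, edgeR's adjusted p = 1.32e-04), as did its cyclin Ccnb1 by 1.21. The other members called lower were Plk1, a mitotic kinase, Bub1b and Mad2l1 of the spindle checkpoint, the spindle motor Kif11 and Foxm1, a factor that drives mitotic genes, of which DESeq2 did not call Bub1b, Kif11 and Foxm1 (its adjusted p = 0.197, 0.282 and 0.243).

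Against that direction, Cenpa had 489 counts in the ESC-labelled library against 206 and 155, and rose by 3.57 (SE 0.17, edgeR's adjusted p = 4.43e-07). Birc5 had 309 counts against 258 and 249, and rose by 2.41 (SE 0.15, edgeR's adjusted p = 1.70e-06). Mki67 had 700 counts against 824 and 1090, and rose by 1.66 on counts (SE 0.22, edgeR's adjusted p = 1.49e-04), while on TPM it stood at 35.8 against 29.6 and 45.9. The mitotic genes therefore did not share a direction. Ccna2, Ccnb2, Cdc25c, Aurkb and Cenpe did not pass.

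**Figure D4:**
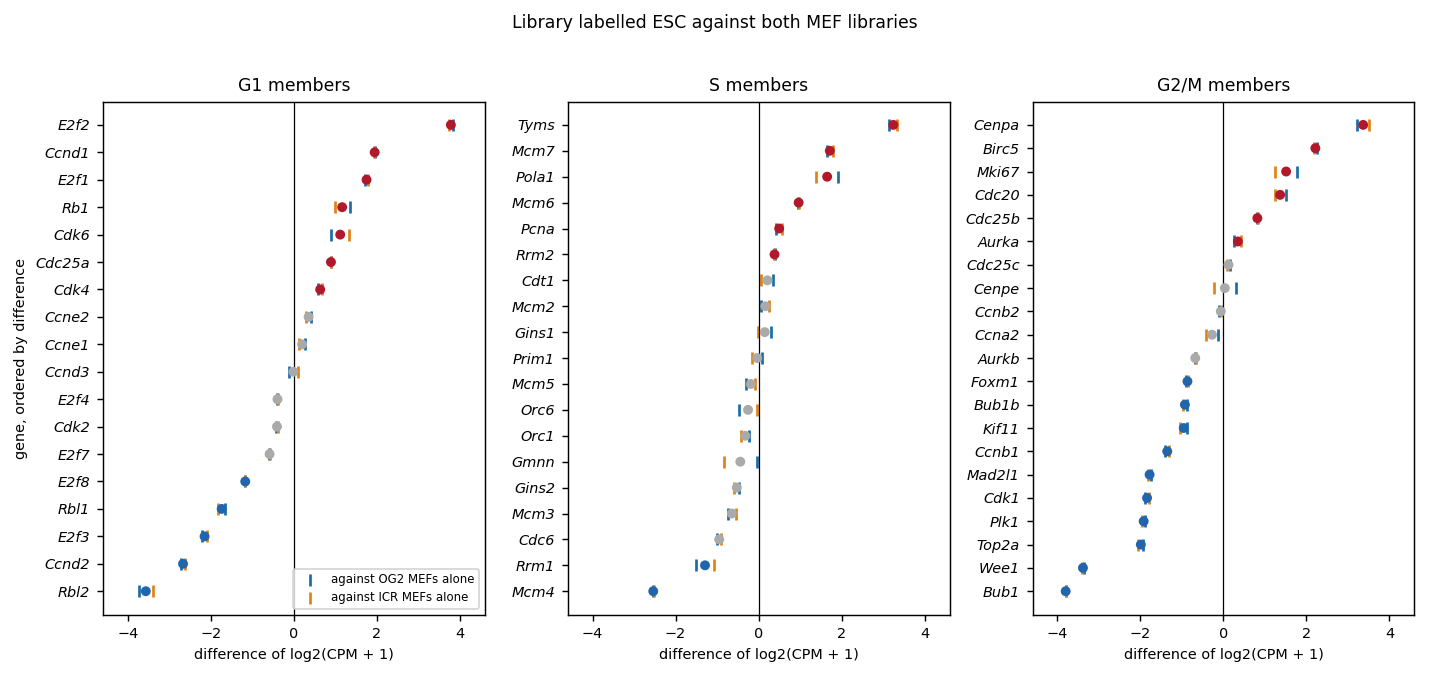
Difference of log2(CPM + 1) between the ESC-labelled library and the mean of the MEF libraries for each member, by phase group. Points are red where edgeR called the gene higher, blue where lower and grey where it did not pass, and ticks show the difference from OG2 or ICR MEFs alone. The members spread from -3.80 for Bub1 to 3.78 for E2f2, and the ticks lie close to the points.

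Of the wider list of 115 genes, edgeR called 46 higher (40%, beside 31.4% of all genes) and 43 lower (37.4%, beside 36%) in the ESC-labelled library, and DESeq2 called 37 (32.2%, beside 22.5%) and 21 (18.3%, beside 21.7%). Among its 41 S genes edgeR called 25 higher (61.0%) and 7 lower (17.1%), and DESeq2 22 (53.7%) and 2 (4.88%). As with the members, not all of these higher calls held on TPM. Rpa1 stood at 54.2 TPM in the ESC-labelled library against 150 and 128 TPM in OG2 and ICR, and Tk1 at 57.8 TPM against 71.1 and 85.5 TPM. Others were higher on TPM too, such as Pold1 at 899 TPM against 29.4 and 31.0 TPM. The effective length of Pold1 in the ESC-labelled library, 423 bases, was far shorter than in either MEF library, which raises its TPM there. Rfc2, whose effective length was similar in all libraries, stood at 190 TPM against 65.0 and 59.8 TPM. Among its 17 G1 genes the counts were 4 (23.5%) and 12 (70.6%) by edgeR and 3 (17.6%) and 5 (29.4%) by DESeq2. Among its 57 G2/M genes they were 17 (29.8%) and 24 (42.1%) by edgeR and 12 (21.1%) and 14 (24.6%) by DESeq2. The shares of all genes beside these are 31.4% and 36% by edgeR and 22.5% and 21.7% by DESeq2. Spc24 rose by 4.96 (SE 0.17, edgeR's adjusted p = 8.93e-08), and Pold1, the catalytic subunit of polymerase delta, with 179, 153 and 749 counts, by 4.30 (SE 0.17, edgeR's adjusted p = 1.62e-07). Tfdp1, a partner with which E2F factors bind DNA, had 577, 508 and 5 counts and fell by 4.63 (SE 0.32, edgeR's adjusted p = 2.81e-06). Its relative Tfdp2 had 126, 124 and 46 counts and was called higher by edgeR (0.68, SE 0.25, edgeR's adjusted p = 0.0378). DESeq2 did not call Tfdp2 (its adjusted p = 0.360), and on TPM it stood at 6.47 against 19.7 and 14.0. Anln, which encodes the cytokinesis protein anillin, had 852, 732 and 11 counts and fell by 4.04 (SE 0.27, edgeR's adjusted p = 2.36e-06).

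Some properties of the members that were not used to choose them were set beside the differences. With the GC content of the transcripts, the difference between OG2 and ICR had Pearson's r of 0.157 over the 58 members and that between the ESC-labelled library and MEFs 0.214, and with log2 effective length the values were -0.06 and -0.19. Over the genes that passed edgeR's filter, the difference between OG2 and ICR had r of 0.087 with GC content and -0.085 with length. The difference between the ESC-labelled library and MEFs had r of 0.185 and -0.36 over them. Over the 115 genes of the wider list, r was 0.327 and -0.33 for the difference between OG2 and ICR. For that between the ESC-labelled library and MEFs it was 0.460 and -0.24. Members with an E2F motif in the promoter window had a median difference between OG2 and ICR of 0.02 (15 genes), and those in the table without one 0.03 (29 genes). The medians between the ESC-labelled library and MEFs were -0.32 and 0.03. For members with both TTTGAA and CCAAT (14 genes), the medians were -0.03 between the strains and -0.50 between the ESC-labelled library and MEFs, against 0.05 and 0.01 for the 30 without both.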

How the data were processed

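Total RNA was sequenced from OG2 MEFs, ICR MEFs and the ESC-labelled R1 line. Per the paper, TRIMMOMATIC trimmed the reads and bowtie2 aligned them to Ensembl transcripts, and the submitters' processing notes name Bowtie, RSEM and mm10. The sequencer is a MiSeq in the labels and a NextSeq in the paper. The authors deposited, for each gene, an expected count from RSEM, which divides reads shared between genes among them, so 18 members had a count more than 0.005 from a whole number in some library. The deposited TPM is scaled by gene length to a fixed sum, and the deposited FPKM was not used. The paper also names a GC-content normalization, and these counts were treated as not yet corrected by it.

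Expected counts were rounded, scaled with TMM factors of 1.09, 1.13 and 0.812 (OG2, ICR, R1) and given as log2(CPM + 1). The threshold of 1 log2 unit follows the paper. edgeR 4.0.16 under R 4.3.3 was run over all genes past its filter, and DESeq2 1.42.0 as an alternative. The edgeR test was run on simulated data as a check of the code. That simulation changed few genes and gave the MEF libraries no strain difference, so it does not show how reliable the present calls are. With 3 counts as a floor, the depths reach 0.583, 0.654 and 1.75 CPM before TMM. Symbols were matched for 98.3% of identifiers with GENCODE M21. Other values came from Python 3.11.15, numpy 2.4.6, pandas 2.3.3, scipy 1.17.1 and matplotlib 3.10.9. Wilson and exact intervals cover counting error only.

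The members, phase groups and lists were chosen with earlier results of these data known. Named with full values were MCM2-7, the D-type cyclins, the 3 members of highest MEF level per phase group, the 3 largest differences in each direction per comparison and group, and the 2 largest per direction of the wider list. Other members were named after their values were seen. One gene that this rule selects is not reported here. Alternatives were median-of-ratios factors, TPM, a pseudocount of 0.1 or 5, MEF-only TMM factors, GC correction over 20 bins, a minimum of 10 counts, a threshold of 0.5, no filter, and each MEF sample left out. The sums without their leading gene were added after the data had been seen.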

Additional observations from a re-analysis of the deposited data

How the results depend on the processing

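No paired analysis was possible because only 1 sample stands on the ESC side. Between OG2 and ICR, 518 recomputed values for genes and complexes moved by less than their counting error, and 4 by more. With the threshold at 0.5 log2 unit, 4 members were higher in ICR MEFs in place of 0. On deposited TPM, 1 member was at least 1 log2 unit higher in OG2, E2f2 at 1.09, whose effective length differed between the libraries.

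The difference between the ESC-labelled library and MEFs was less stable than that between the strains. Of its recomputed values for genes and complexes, 378 were classed as unchanged, 207 as moved and 13 as reversed in direction. Median-of-ratios factors shifted this difference by a median of 0.18 over all genes tested, and TPM by -1.32. The group medians of that difference became 0.29 (G1), 0.15 (S) and -0.49 (G2/M) with median-of-ratios factors, and -1.48, -1.27 and -2.23 on TPM, where the SD among MCM2-7 was 1.76. GC correction turned the G1 median to -0.10, and a pseudocount of 5 gave -0.58 for G2/M. The cause was not tested. On TPM the difference was below 0 for Cdk4 (-1.42), Cdk6 (-0.17), Rb1 (-0.17), Cdc25a (-0.61), Mcm6 (-0.58), Pcna (-0.32), Rrm2 (-0.0039), Cdc20 (-0.20), Cdc25b (-0.64), Aurka (-1.19), Mki67 (-0.042), Kif18a (-0.21) and Pold3 (-0.075), all called higher on counts and all above the TPM median of -1.55 over all genes tested.

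With each MEF sample left out, the medians ranged from 0.082 to 0.11 (G1), -0.049 to 0.063 (S) and -0.69 to -0.67 (G2/M), and the SD among MCM2-7 from 1.46 to 1.48. The direction of the S median thus rested on which MEF sample was used. edgeR was not run without a MEF sample, since no residual degree of freedom would be left. By edgeR, median-of-ratios factors gave 19 members higher and 17 lower, and no filter 17 and 19. DESeq2 lowered the count of wider-list genes called lower from 43 to 21 and that of complexes with calls in both directions from 7 to 3.

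Depth limits the members with 1 to 10 counts in the ESC-labelled library most, and neither strain nor line has a replicate.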
